A study of Mus musculus with 15 samples.

Results

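The miR-30 family is a group of microRNAs made from the related hairpins miR-30a to miR-30e, each of which can release a 5p arm and a 3p arm. Members were found by name among the miRNAs of the array: the 5p arms of all 5 letters were listed, and each 3p arm was added where the scanner software called it detected on at least 1 array. The array carried 10 such names, 5 of them 3p arms. In all, 9 of the 696 mouse miRNAs on the array were members, since mmu-miR-30b-3p was detected on no array and was left out.

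Liver miRNA was profiled in 15 male B6C57/J mice that were one-year old when they entered their diet groups, and the labels do not give the age at which the livers were taken. In the standard diet group (SD), 5 mice had free access to AIN-93G food. In the caloric restriction group (CR), 5 mice were held to a 40% restriction of that food, and in the metformin group (Met), 5 mice had free access to AIN-93G food that held 0.1% w/w metformin. Each mouse had its own 1-color array, on which Cy3-labeled RNA binds short probes and a scanner measures how bright each spot is.

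A microRNA guides an Argonaute protein to messenger RNAs, mainly through its seed, bases 2 to 8 counted from the 5′ end, and so lowers the output of those messengers. The 5p arms of the miR-30 family share 1 seed and can therefore bind the same sites, while the 3p arms carry other seeds. Members of the family are known for roles in autophagy, where miR-30a targets the messenger of Beclin 1, in bile duct development, and in lipid secretion by the liver, where miR-30c targets the messenger of the microsomal triglyceride transfer protein.

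The mature sequences are shown because mmu-miR-30a-5p, mmu-miR-30c-5p and mmu-miR-30e-5p, 3 of the 5p arms, differ by few bases, none of them in the seed, which is printed in capitals. Of the 10 names, 7 matched an entry in the RefSeq table for mouse assembly GRCm38.p6, and mmu-miR-30b-5p, mmu-miR-30d-5p and mmu-miR-30b-3p had no entry there. The 5p arms with an entry had the seed GUAAACA in common:
mmu-miR-30a-5p: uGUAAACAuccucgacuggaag
mmu-miR-30c-5p: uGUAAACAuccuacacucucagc
mmu-miR-30e-5p: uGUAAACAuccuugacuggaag
The 3p arms of miR-30a and miR-30e had another seed:
mmu-miR-30a-3p: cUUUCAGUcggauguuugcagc
mmu-miR-30e-3p: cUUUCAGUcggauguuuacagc
The 3p arms of the miR-30c hairpins had a seed of their own:
mmu-miR-30c-1-3p: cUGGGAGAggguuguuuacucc
mmu-miR-30c-2-3p: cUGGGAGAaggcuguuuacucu

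Counted from 1 at the 5′ end, mmu-miR-30a-5p and mmu-miR-30e-5p differed at 1 of 22 positions, C13U, with the base of miR-30a first. From mmu-miR-30a-5p to mmu-miR-30c-5p there were 5 differences over 22 positions, C13A, G14C, G18C, G19U and A20C, and miR-30c was longer, with 23 bases. The 3p arms of miR-30a and miR-30e also differed at 1 of 22 positions, G18A. G and C made up 45.5% of mmu-miR-30a-5p, 43.5% of mmu-miR-30c-5p and 40.9% of mmu-miR-30e-5p. Among the 1679 mature mouse sequences of the table, 4 names had the seed of the 5p arms, and the one outside the family was miR-384-5p. Each 5p arm was measured by 20 spots per array, from 3 probes for mmu-miR-30a-5p and 2 probes for each of the others. Whether a probe for one arm also bound a near relative was not tested.

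The genes lie in pairs, all in GRCm38.p6. The mature mmu-miR-30a-5p lies on the plus strand at chr1:23272274-23272295, and 1 copy of mmu-miR-30c-5p, from Mir30c-2, lies on the same strand at chr1:23291714-23291736. The other copy of mmu-miR-30c-5p, from Mir30c-1, lies on the minus strand at chr4:120769584-120769606, and mmu-miR-30e-5p lies on the minus strand at chr4:120772660-120772681, both inside the protein-coding gene Nfyc. Mir30b and Mir30d are neighbors on chromosome 15. Since both Mir30c hairpins give the same 5p sequence, the array cannot tell them apart for that arm.

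Several arrays stood apart before any member was compared. The summed signal of all detected miRNAs, on the log2 scale, was 16.68 in CR mouse 2, 16.44 in CR mouse 3 and 16.95 in CR mouse 4, and at least 17.27 on each of the other arrays. CR mice 1 and 5, at 17.27 and 17.36, were also below all SD mice. CR mouse 3 also had the fewest detected miRNAs, 151, against 167 to 198 in the other CR mice, 170 to 205 in SD mice and 182 to 191 in Met mice. The bright corner control spots read 20.5 to 36.2 in CR mice, 46.7 to 325 in SD mice and 69.8 to 151 in Met mice. The part of these array differences in the results was not tested, and the calls of members are given with and without these mice.

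The arrays were on 2 slides, with all SD arrays on slide 1, all CR arrays on slide 2, Met mice 1 to 3 on slide 1 and Met mice 4 and 5 on slide 2. No slide held both SD and CR, so the comparison of CR with SD had no value within 1 slide. With 5 arrays per group, their number limits the precision. Arrays of the same group correlated with r of at least 0.941 over the log signals of all spots for mouse miRNAs. In bulk liver, fewer cells of a type and less RNA per cell cannot be told apart.

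Values per mouse are the total gene signal, an intensity that the scanner software sums over the probes of a miRNA after subtracting background, without scaling between arrays. Tests used z-scores, in which the log signals of an array are centered on their mean and brought to a standard deviation of 1, with no background subtracted. Testing required detection in all 5 mice of a group, whichever group that was, and this left 178 miRNAs, among them 8 of the 9 members, all but mmu-miR-30c-1-3p. A miRNA was called lower or higher when limma gave a p of at most 0.05, a Benjamini-Hochberg adjusted p over the 178 miRNAs of at most 0.3 and a Z ratio of at least 1.5 in size. The Z ratio sets the difference between group means against the spread of such differences among all 696 miRNAs. In the alternative fits of total gene signal, that spread was taken among the 178 tested miRNAs instead, so calls there met another limit.

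The comparison of CR with SD asks how restricted food intake changed the miR-30 arms in liver. The signal of mmu-miR-30e-5p was lower in all 5 CR mice than in any SD mouse, most of all in CR mice 2 and 3. The 5p arms of miR-30b, miR-30c and miR-30a were low in CR mice 2, 3 and 4 and within the SD range in CR mice 1 and 5, and miR-30a turned higher in CR under 1 of 7 scalings, though below the median of all tested miRNAs there. The 5p arm of miR-30d was not called, and its mean z-score was 0.722 ± 0.0890 (SD, n = 5) in CR mice against 0.679 ± 0.0441 (SD, n = 5) in the standard diet group.

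For mmu-miR-30e-5p the total gene signal in CR mice 1 to 5 was 178, 38.3, 22.9, 109 and 177. It was 198, 207, 244, 201 and 211 in SD mice 1 to 5 and 211, 197, 209, 193 and 249 in Met mice 1 to 5. Every CR mouse lay below every SD and Met mouse, CR mice 2 and 3 by far the most, and the SD and Met ranges overlapped. Against the geometric mean of SD mice, the 5 CR mice were 1.19, 5.52, 9.25, 1.94 and 1.20 times lower, without scaling. On those arrays the median log2 difference from the SD mean over the 139 miRNAs detected on all arrays was 0.10, -0.40, -0.78, -0.31 and 0.076, so in every CR mouse miR-30e-5p was lower than that median. In CR mice 2 and 3, 60% and 50% of the spots for mmu-miR-30e-5p were well above background, against 100% on every other array. The mean z-score was 0.361 ± 0.326 (SD, n = 5) in CR and 0.807 ± 0.0432 (SD, n = 5) in the standard diet group, and limma gave a difference of -0.446 (SE 0.116, adjusted p = 0.0154, Z ratio -2.68). Both of its probes were lower in CR, by z-score differences of -0.343 and -0.549.

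For mmu-miR-30b-5p the CR mice gave total gene signals of 534, 156, 153, 315 and 518. The SD mice gave 459, 459.8, 603, 456 and 600, and the Met mice 495, 528, 522, 571 and 663. CR mice 2, 3 and 4 lay below all SD and Met mice, and CR mice 1 and 5 lay inside the SD range. The limma difference of z-scores was -0.388 (SE 0.148, adjusted p = 0.0549, Z ratio -2.33).

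For mmu-miR-30c-5p, which both Mir30c hairpins encode, the CR mice gave 905, 311, 274, 539 and 847. SD mice gave 738, 721, 949, 740.0 and 972, and Met mice gave 833, 841, 854, 867 and 1043. Again CR mice 2, 3 and 4 were low and CR mice 1 and 5 overlapped SD. In limma the z-score difference was -0.347 (SE 0.153, adjusted p = 0.0959, Z ratio -2.09).

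The CR values of mmu-miR-30a-5p were 942, 445, 305, 547 and 865. Those of SD mice were 759, 731, 996, 795 and 1010.3, and those of Met mice were 882, 807, 902, 886 and 1009. The same 3 CR mice lay below all others, and the groups overlapped through CR mice 1 and 5. Here limma gave -0.297 (SE 0.135, adjusted p = 0.105, Z ratio -1.78).

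The CR values of mmu-miR-30d-5p were 194, 157, 111, 152 and 199.5. Those of SD mice were 158, 156, 173, 162 and 186, and those of Met mice were 182, 172, 169, 212 and 216. CR mouse 3 was the lowest, at a log2 difference of -0.59 from the SD mean, CR mouse 4 was just under the SD range, and CR mice 1 and 5 were above all SD mice. The limma difference of z-scores was 0.0425 (SE 0.0585, adjusted p = 0.607), with a 95% interval from -0.0817 to 0.167.

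**Figure D1:**
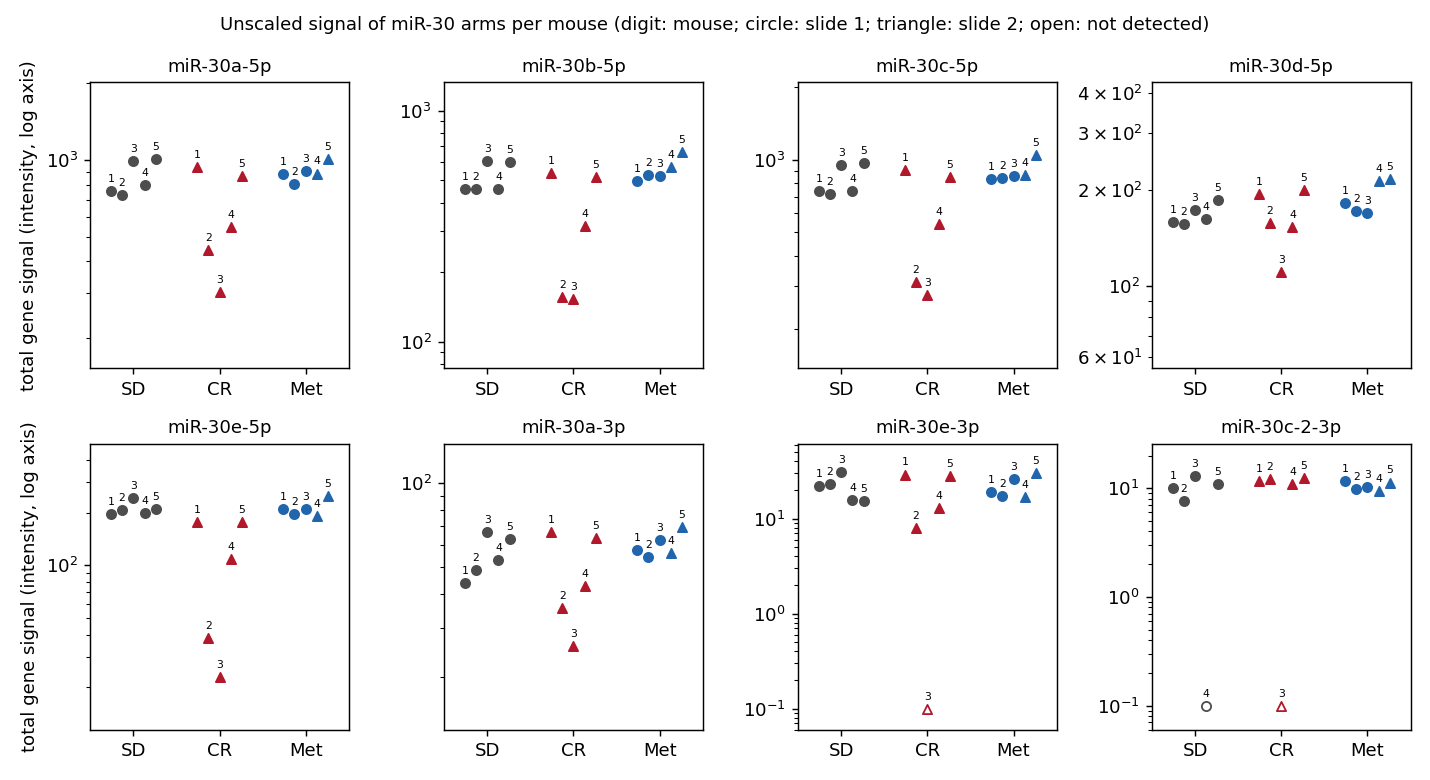
Total gene signal (intensity, log axis, no scaling between arrays) of the 8 tested miR-30 arms in each mouse of the SD, CR and Met groups, with 1 point per mouse, its number above it, circles for slide 1, triangles for slide 2 and open symbols where the arm was not detected. CR mice 2 and 3 are lowest for mmu-miR-30e-5p, at 38.3 and 22.9, and all 5 CR mice lie below the SD and Met mice for that arm, whereas for mmu-miR-30d-5p CR mice 1 and 5 lie above all SD mice.

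In the comparison of CR with SD, 4 of the 8 tested members were called, all lower, beside 17.4% of the 178 tested miRNAs called in either direction and 14.6% called lower. These were the 5p arms of miR-30a, miR-30b, miR-30c and miR-30e, of which miR-30a turned higher when arrays were scaled to a 75th percentile set by detected probes, though it stayed below the median of all tested miRNAs. The median z-score difference was -0.347 over the 5p arms and -0.0161 over all tested miRNAs. Among the 178 miRNAs ranked from the lowest difference, mmu-miR-30e-5p was at 21, miR-30b-5p at 25, miR-30c-5p at 27, miR-30a-5p at 28 and miR-30d-5p at 129. No test was made of whether the members as a group differed from other miRNAs.

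The calls changed when the arrays with the lowest summed signals were left out. Without CR mice 2 and 3, chosen after seeing the data, 1 of the 8 members was called, mmu-miR-30e-5p, at a Z ratio of -1.90 (limma adjusted p = 0.0629), beside 12.4% of all tested miRNAs. Without CR mice 2, 3 and 4, also chosen after seeing the data, limma called 0 members, beside 8.43% of all tested miRNAs, and 1, mmu-miR-30e-5p, had an unadjusted p under 0.05. Its Z ratio was then -1.19 (limma adjusted p = 0.212), and those of miR-30a-5p, miR-30b-5p and miR-30c-5p turned to 0.362, 0.0675 and 0.454. With the slide as a block, a fit in which CR and SD are linked through the Met arrays alone, 1 member was called, mmu-miR-30e-5p, at a Z ratio of -2.59 (limma adjusted p = 0.257), beside 9.55% of all tested miRNAs, and that of miR-30d-5p turned to -0.480. The Z ratios of miR-30b-5p, miR-30c-5p and miR-30a-5p in this fit were -2.84, -2.36 and -1.90, no smaller in size than without the block, but with limma adjusted p of 0.257, 0.337 and 0.380 and unadjusted p above 0.05.

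Each of the 15 mice was also left out in turn. The call of mmu-miR-30e-5p held in all 15 of these fits, with Z ratios from -2.81 to -2.50, and over all 29 alternatives its limma adjusted p lay between 0.00498 and 0.257. That of miR-30b-5p held in 13 and was lost without CR mouse 2 or CR mouse 3, with Z ratios from -2.66 to -1.90 (limma adjusted p 0.0128 to 0.158). That of miR-30c-5p held in 9 and was lost without SD mouse 2, 3 or 5 or CR mouse 2, 3 or 4, with Z ratios from -2.47 to -1.68 (limma adjusted p 0.0207 to 0.260). That of miR-30a-5p held only without SD mouse 1, CR mouse 1 or CR mouse 5, with Z ratios from -2.13 to -1.28 (limma adjusted p 0.0230 to 0.251).

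The difference between CR and SD mice was not the same for every 5p arm. Ratios of arms on the same array describe this without any scaling between arrays. Each ratio is given on the log2 scale relative to its mean in SD mice. The ratio of mmu-miR-30a-5p to mmu-miR-30e-5p, which differ by the single base C13U, was 0.28 to 1.73 in CR mice (mean 0.85 ± 0.72, SD, n = 5), -0.19 to 0.25 in SD mice and 0.012 to 0.20 in Met mice. All 5 CR mice were above all SD and Met mice. For mmu-miR-30d-5p to mmu-miR-30e-5p the CR mice ranged from 0.46 to 2.62 (mean 1.36 ± 1.05, SD, n = 5) and the SD mice from -0.15 to 0.16, again without overlap. The Met mice ranged from 0.035 to 0.49 for that ratio, so that the highest Met mouse reached the lowest CR mouse.

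Over the 10 pairs of 5p arms, the CR and SD mice did not overlap in 6: the ratios of miR-30a, miR-30b, miR-30c and miR-30d to miR-30e were higher in all CR mice, and those of miR-30b to miR-30c and of miR-30b to miR-30d were lower. Among all 9591 pairs of the 139 miRNAs detected on all arrays, 17.5% did not overlap between CR and SD, and 16.1% did not between CR and Met. The ratio of miR-30b to miR-30d ranged from -1.63 to -0.15 in CR mice and from -0.12 to 0.19 in SD mice. That of miR-30b to miR-30c ranged from -0.32 to -0.032 in CR mice and from -0.023 to 0.028 in SD mice, a smaller separation. Against Met only the ratios of miR-30a and miR-30c to miR-30e stood without overlap, 2 of the 10 pairs, and the Met mice reached 0.30 for miR-30b to miR-30e, where the lowest CR mouse was at 0.26. The pairs that overlapped between CR and SD were miR-30a with miR-30b, miR-30c or miR-30d, and miR-30c with miR-30d. No test was made of these ratios, and a ratio shows unequal change without showing that either arm stayed constant.

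**Figure D2:**
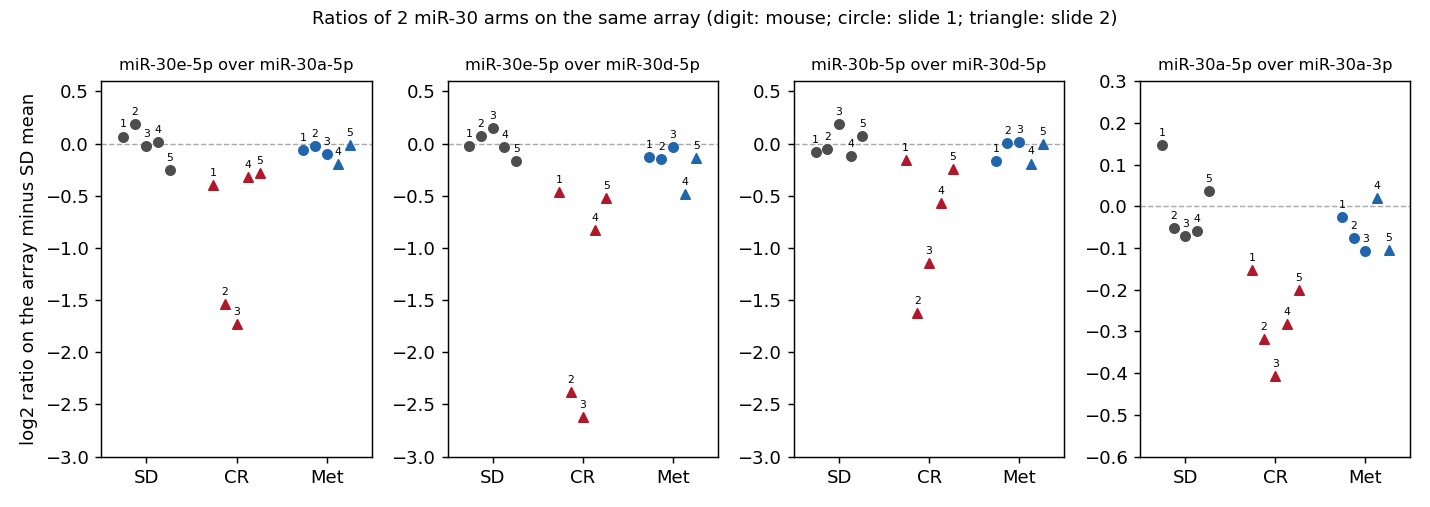
Log2 ratio of a pair of miR-30 arms on the same array, relative to the SD mean, in each mouse (number above the point, circle for slide 1, triangle for slide 2), with another vertical scale in the panel on the right. In the panels with miR-30e-5p on top all CR mice lie below all SD mice, down to -1.73 against miR-30a-5p and -2.62 against miR-30d-5p, and in the panel on the right all CR mice lie at -0.15 or lower.

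The comparison of CR with Met asks how the arms differed between restricted mice and mice with free access to food with metformin. The pattern was close to that against SD, and the CR arrays are shared by both comparisons. The same 5p arms, those of miR-30a, miR-30b, miR-30c and miR-30e, were called lower in CR, although miR-30a turned higher, while still below the median of all tested miRNAs, under total gene signal scaled to its 75th percentile. The arm of miR-30e was lower in all 5 CR mice than in any Met mouse, and the other arms overlapped through CR mice 1 and 5.

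In limma, mmu-miR-30b-5p had the lowest difference of CR from Met, -0.433 (SE 0.148, adjusted p = 0.0344, Z ratio -2.79). It was followed by mmu-miR-30e-5p with -0.418 (SE 0.116, limma adjusted p = 0.0255, Z ratio -2.69). Their order turned under the other 6 scalings, where miR-30e-5p was the lowest of the 5p arms. For mmu-miR-30c-5p limma gave -0.411 (adjusted p = 0.0489, Z ratio -2.65) and for mmu-miR-30a-5p -0.326 (adjusted p = 0.0718, Z ratio -2.10). The difference of mmu-miR-30d-5p was -0.0211 (limma adjusted p = 0.767, 95% interval -0.145 to 0.103), and it turned higher in CR under 4 of 7 scalings.

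Of the 8 tested members, 4 were called in CR against Met, all lower, beside 20.8% of the tested miRNAs called in either direction and 16.3% called lower. The median difference over the 5p arms was -0.411, and over all tested miRNAs it was -0.0292. Within slide 2, which held all CR mice and Met mice 4 and 5, limma called 0 members, beside 6.74% of all tested miRNAs, and 0 reached an unadjusted p of 0.05. There mmu-miR-30e-5p had a Z ratio of -2.56 (limma adjusted p = 0.228), miR-30b-5p of -3.02 (adjusted p = 0.230), miR-30c-5p of -2.73 (adjusted p = 0.268) and miR-30a-5p of -2.11 (adjusted p = 0.331). With the slide as a block 3 members were called, the 5p arms of miR-30b, miR-30c and miR-30e, beside 19.1% of all tested miRNAs. Only mmu-miR-30e-5p was called without CR mice 2 and 3, at a Z ratio of -2.02 (limma adjusted p = 0.106), beside 10.1%. When CR mice 2, 3 and 4 were left out limma called 0 members, beside 1.69% of all tested miRNAs, 0 members reached an unadjusted p of 0.05, and mmu-miR-30e-5p had a Z ratio of -1.19 (adjusted p = 0.443).

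Leaving out each mouse in turn kept the calls of miR-30e-5p and miR-30b-5p against Met in all 15 fits. Over all 30 alternatives the limma adjusted p of miR-30e-5p lay between 0.00653 and 0.443. The call of miR-30c-5p was lost without CR mouse 2, and that of miR-30a-5p without CR mouse 2, 3 or 4 or Met mouse 3 or 5. Their Z ratios over these 15 fits ran from -2.95 to -2.33 (limma adjusted p 0.0114 to 0.145) and from -2.40 to -1.66 (limma adjusted p 0.0159 to 0.181).

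**Figure D3:**
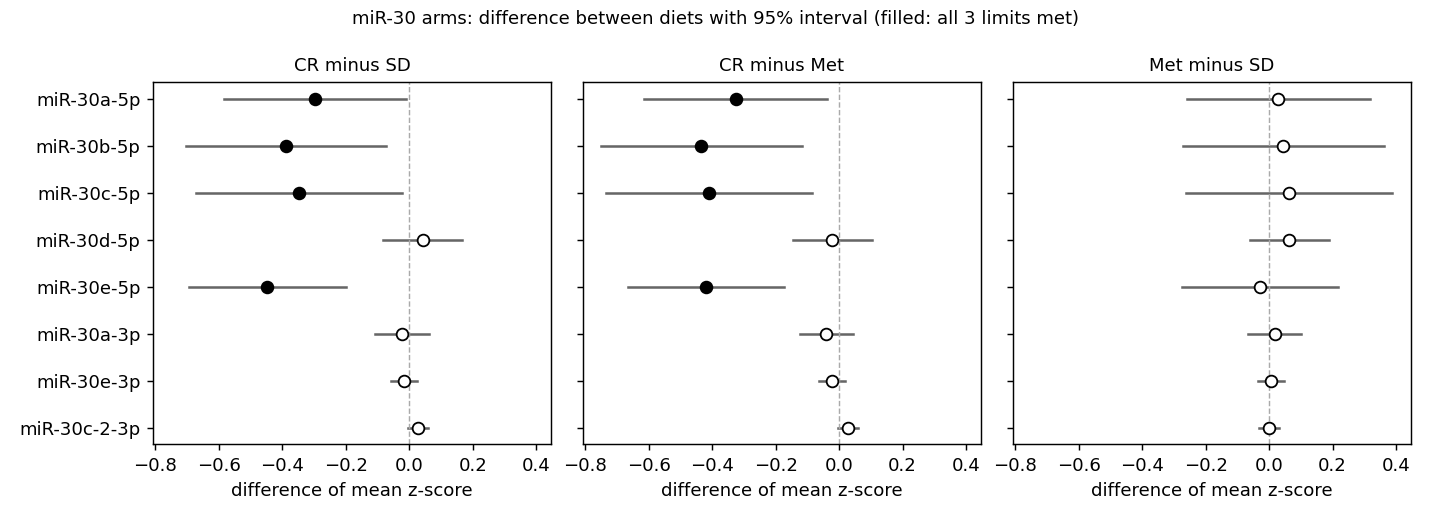
Difference of mean z-score between groups (horizontal axis) for the 8 tested miR-30 arms, with the 95% interval from limma, and filled points where the limits for p, adjusted p and Z ratio were all met. In CR minus SD and CR minus Met the filled points are the 5p arms of miR-30a, miR-30b, miR-30c and miR-30e, at -0.446 to -0.297 and -0.433 to -0.326 (miR-30a turned higher under 1 other scaling in each, though below the median of all tested miRNAs), and in Met minus SD no point is filled.

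The comparison of Met with SD asks whether metformin in the food changed the arms. None of the members was called, and every member overlapped between the groups. For mmu-miR-30e-5p the total gene signal was 193 to 249 in Met mice and 198 to 244 in SD mice. The highest Met value was that of mouse 5 for each of the 5p arms.

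With limma, 0 of 8 members were called in Met against SD, 0 reached an unadjusted p of 0.05, and 1.12% of the tested miRNAs were called. The z-score differences ran from -0.0280 for mmu-miR-30e-5p (limma adjusted p = 0.930, 95% interval -0.274 to 0.218) to 0.0641 for mmu-miR-30c-5p (adjusted p = 0.930, 95% interval -0.260 to 0.389). For mmu-miR-30d-5p the difference was 0.0636 (95% interval -0.0607 to 0.188), and within slide 1 it was 0.0122 (Z ratio 0.228). The p-values do not show that the groups were alike. Of the 5p arms, miR-30e was lower and miR-30d higher in Met under all 7 scalings, and miR-30a, miR-30b and miR-30c turned lower under total gene signal scaled to its 75th percentile. Within slide 1, which held all SD mice and Met mice 1 to 3, limma called 0 members and 0 of all tested miRNAs, and at an unadjusted p of 0.05 the counts were 0 and 7. The Z ratios of the members there lay between -0.654 for mmu-miR-30e-5p and 0.625 for mmu-miR-30c-5p, and that of mmu-miR-30b-5p turned below 0.

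The scalings moved all miRNAs, so directions are read relative to that shift. In CR against SD, the median log2 difference over the 178 tested miRNAs was 0.35 when detected probes set the 75th percentile to which arrays were scaled, 0.23 when all probes set it, 0.27 with total gene signal scaled to its 75th percentile and -0.29 without scaling. In CR against Met it was 0.21, 0.11, 0.25 and -0.46 in the same order. In Met against SD it was 0.11, 0.099, -0.012 and 0.13. The 5p arms other than miR-30d lay below that median under all 7 scalings in both comparisons with CR.

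In CR against SD, the order of the 5p arms was the same under all 7 scalings, with miR-30e lowest, then miR-30b, miR-30c, miR-30a and miR-30d. Among the 139 miRNAs detected on all arrays, mmu-miR-30e-5p ranked between 11 and 20 from the lowest in CR against SD and between 12 and 20 in CR against Met. It was lower in CR under all 7 scalings, was called under 5 of them against SD and 6 against Met, and had limma adjusted p from 0.0154 to 0.0729 and from 0.0240 to 0.0832. With scaled total gene signal, where the Z ratio used another spread, it was not called, at -0.815 against SD and -0.711 against Met. Its limma adjusted p was 0.0302 and 0.0569 there. Of the 7 scalings, miR-30b-5p was called under 2 against SD and 3 against Met, miR-30c-5p under 2 and 2, and miR-30a-5p under 1 and 2. By contrast, mmu-miR-30d-5p ranked between 97 and 119 against SD. Its difference from SD was above 0 under 6 scalings and below 0 without scaling, and among the scalings it was called higher under quantile normalization alone (limma adjusted p = 0.0202, range over the scalings 0.0109 to 0.749). The lowest of these, 0.0109, came with scaled total gene signal, at a Z ratio of 0.471.

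**Figure D4:**
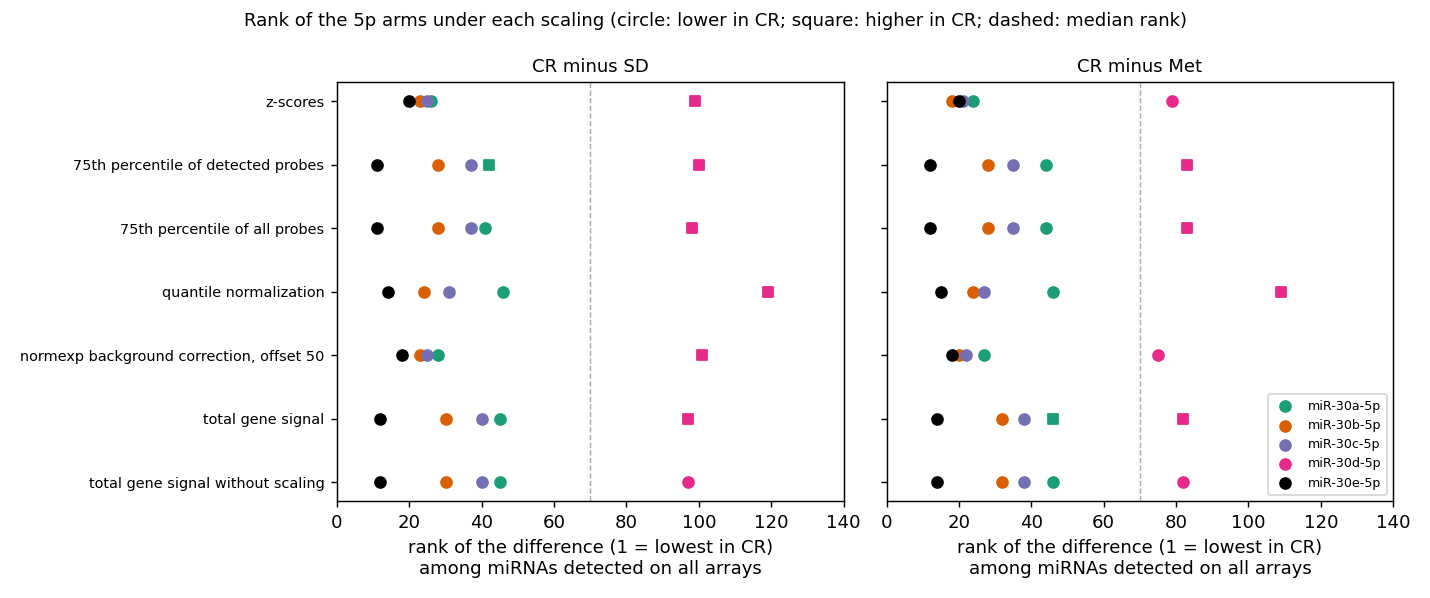
Rank of each miR-30 5p arm among the 139 miRNAs detected on all arrays, from the lowest difference in CR (horizontal axis), under 7 scalings (vertical axis), with circles where the arm was lower in CR, squares where it was higher and a dashed line at the median rank. In CR minus SD, miR-30e-5p stays between ranks 11 and 20 and miR-30d-5p between 97 and 119, while miR-30a-5p turns higher under 1 scaling, though left of the median rank, and miR-30d-5p lower without scaling.

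The 3p arms had lower shares of spots well above background in several mice. The total gene signal of mmu-miR-30a-3p was 67.0, 35.5, 25.9, 42.6 and 63.7 in CR mice 1 to 5, 43.9 to 67.1 in SD mice and 54.4 to 69.5 in Met mice. CR mice 2, 3 and 4 were again the lowest of all, and CR mice 1 and 5 lay in the upper part of the SD range. Its z-score difference was -0.0228 in CR against SD (limma adjusted p = 0.684) and turned above 0 under 4 scalings. For mmu-miR-30e-3p the signal was 8.02 to 29.1 in the CR mice where it was detected, 15.2 to 30.6 in SD mice and 17.0 to 30.5 in Met mice, and it was not detected in CR mouse 3. At most 65% of its spots were well above background on any array. For mmu-miR-30c-2-3p, which was not detected in SD mouse 4 and CR mouse 3, the detected values lay between 7.67 and 12.8, with at most 40% of spots well above background. Neither of these 3p arms was called in any comparison, and no fold is given for them. Their mean z-scores in SD mice were -0.126 and -0.209, and undetected mmu-miR-30b-3p was at -0.277 in CR mice. A call in CR against SD needed a fall of 1.5 times 0.166, more than that distance. The lack of a call for lower signal in CR therefore cannot tell whether these 2 arms changed. The signal of mmu-miR-30c-1-3p, detected in 2 SD, 3 CR and 1 Met mice, lay between 3.82 and 5.81 where detected.

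Whether the 5p and the 3p arm of a hairpin changed together was asked by the log2 difference of their total gene signals on the same array. Of the hairpins on the array, 6 had both arms detected on all 15 arrays, and miR-30a was the only member of the family among them. Relative to the SD mean, its 5p arm less its 3p arm was -0.15, -0.32, -0.41, -0.28 and -0.20 in CR mice 1 to 5, 0.15, -0.053, -0.072, -0.059 and 0.037 in SD mice and -0.026, -0.075, -0.11, 0.019 and -0.10 in Met mice. All CR mice lay below all SD and Met mice, CR mice 1 and 5 included. In CR mouse 3, 50% of the spots for mmu-miR-30a-3p were well above background.

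The limma difference of CR from SD for the miR-30a hairpin was -0.27 (SE 0.077, adjusted p = 0.00973 over the 6 hairpins), lower in 5 of 5 CR mice. Changes at an adjusted p of 0.05 or less were found for 3 of the 6 hairpins, or 50%, of which that of miR-30a was lower. The hairpin of miR-1897 was lower by more, -0.42, without meeting the limit (limma adjusted p = 0.0748). The other 2 that changed, miR-125a and miR-193a, were higher, and these 3 outside the family were named after their values were seen. Against Met the difference was -0.21 (limma adjusted p = 0.0443), where 2 of 6 hairpins, or 33.3%, changed, the other being miR-193a. Met against SD gave -0.059 (limma adjusted p = 0.632), with 1 of 6 hairpins, or 16.7%, changed, which was miR-139 and was named after its values were seen.

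The lower 5p to 3p difference of miR-30a in CR was called against SD in each of the 15 fits that left out 1 mouse (-0.30 to -0.24, limma adjusted p 0.00652 to 0.0187). Against Met it was called in 3 of 15, those without SD mouse 1, CR mouse 1 or CR mouse 5 (-0.24 to -0.18 over the 15 fits, limma adjusted p 0.0160 to 0.107). Without CR mice 2 and 3, chosen after seeing the data, it was -0.21 against SD (limma adjusted p = 0.0229) and -0.15 against Met (adjusted p = 0.144), and without CR mice 2, 3 and 4 it was -0.18 (adjusted p = 0.102) and -0.12 (adjusted p = 0.409). With the slide as a block it was -0.30 (limma adjusted p = 0.110) and -0.23 (adjusted p = 0.102), and within slide 2, a fit chosen after seeing the data, it was -0.23 against Met (adjusted p = 0.139). Among the 17 hairpins whose arms were both detected in all 5 mice of a group, the miR-30a differences were the same, -0.27 and -0.21, while the SE was 0.129 and the limma adjusted p 0.0914 against SD and 0.205 against Met. There 6 of the 17, or 35.3%, changed in CR against SD, miR-30a not among them, and 4 of these were lower, the hairpins of miR-126, miR-17, miR-21a and miR-22, named after their values were seen, each with an arm undetected on at least 1 array. In that set the hairpins of miR-30e and miR-30c-2 were also measured and their groups overlapped in every comparison. No difference is given for them, since their 3p arms were undetected in CR mouse 3, and that of miR-30c-2 also in SD mouse 4, and were set to a floor there.

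Other families with near-identical members are given beside the 17.4% of all tested miRNAs that were called in CR against SD and the 14.6% called lower. In the let-7 family, 1 of 9 members was called higher, let-7b-5p with a z-score difference of 0.307, and 1 lower, let-7f-5p with -0.568, directions that held under all 7 scalings, while the calls were made under 5 and 2 of them. The median difference of the family was -0.00425. In the miR-29 family 2 of 3 were called lower, miR-29b-3p with -0.634 and miR-29c-3p with -0.546, both lower under all 7 scalings and called under 6 and 3, while miR-29a-3p gave 0.0474 (limma adjusted p = 0.796) and turned lower without scaling. In the miR-26 family 1 of 2 was called lower, miR-26b-5p with -0.559, lower under all 7 scalings and called under 3, while miR-26a-5p gave -0.0346 (limma adjusted p = 0.840) and turned higher under 5 of them. The medians of these families were -0.546 and -0.297. Against Met, 2 let-7, 2 miR-29 and 1 miR-26 members were called, each lower under all 7 scalings, beside 20.8% of all tested miRNAs called and 16.3% called lower. In Met against SD limma called 0 of these 14 miRNAs, and 0 had an unadjusted p of 0.05 or less. Whether the spread within miR-30 differed from that within these families was not tested.

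Over the 15 arrays, the z-score of each member was set against the mean of the 5p arms, as a description. Pearson's r with that mean was 0.995 for miR-30c-5p, 0.991 for miR-30b-5p, 0.979 for miR-30a-5p, 0.962 for miR-30e-5p and 0.421 for miR-30d-5p, each of which is part of the mean. It was 0.813 for miR-30a-3p, 0.791 for miR-30e-3p and -0.495 for miR-30c-2-3p. Outside the family the closest miRNAs were miR-194-5p with r of 0.991, miR-148a-3p with 0.980 and miR-20a-5p with 0.978. The same 15 arrays, with CR mice 2, 3 and 4 among them, give every r. The mean z-score of miR-148a-3p was 1.08 ± 0.676 (SD, n = 5) in CR and 1.89 ± 0.122 (SD, n = 5) in the standard diet group.

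Of the 4 hepatocyte names listed, 3 were on the array and detected on every array, and their summed signal in CR mice 1 to 5 was 26015, 15169, 10508, 18122 and 27657, against 18758 to 29611 in SD mice and 24605 to 29812 in Met mice. Most of it came from miR-122-5p, which read 9922 to 25989. The list was split in CR against SD, with z-score differences of 0.217 for miR-122-5p (limma adjusted p = 0.155), which turned lower under 2 of 7 scalings, and -0.887 for miR-192-5p and -0.508 for miR-194-5p, both called with z-scores and lower under all 7, and called under 5 and 3 of them. The 2 endothelial miRNAs, with miR-126-3p the brighter and the other undetected in CR mice 2 and 3, summed to 809, 218, 215, 471 and 839 in CR mice, 620.2 to 886 in SD mice and 665 to 877 in Met mice. For the 5 leukocyte miRNAs, with miR-223-3p the brightest on average but undetected in CR mouse 3, the sums were 112, 34.7, 18.3, 69.9 and 158 in CR mice, 108 to 194 in SD mice and 111 to 217 in Met mice.

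Of the 3 erythroid names 2 were on the array, and their sum, mostly miR-451a, was 349, 33.8, 44.5, 270.2 and 788 in CR mice, 265 to 726 in SD mice and 291 to 621 in Met mice. CR mice 2 and 3 were thus below all SD and Met mice for the summed, unscaled signal of all 4 of these lists, as they were for the 5p arms other than miR-30d. The 3 striated muscle miRNAs were detected in CR mouse 5 only, with a sum of 801 of which miR-133a-3p gave 512, and were undetected in all other mice. Of the 5 epithelial miRNAs, miR-200c-3p, miR-141-3p and miR-429-3p were detected on no array, and the sum, with miR-200b-3p the brightest, was 0 to 40.4 in CR mice, 8.05 to 18.9 in SD mice and 0 to 27.4 in Met mice. The part of these cell types in the miR-30 results was not tested.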

How the data were processed

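From each array the authors deposited the output of the scanner software, in which every spot has an intensity and a local background on a linear scale, with no normalization between arrays. Processed and total gene intensities in the same deposited output had background subtracted by the scanner software. Other deposited columns are 0 or 1 flags from that software for detection, spots well above background, saturation and outliers. The authors also deposited a z-score per spot and array, and scores computed here from the median spot intensity equaled those deposited within 0.0005.

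Outlier spots were left out, and spots were averaged to probes and probes to miRNAs. The fits used limma 3.58.1 in R 4.3.3, 1 fit over 15 arrays with a variance trend, or without trend for the arm differences. Python 3.11.15, numpy 2.4.6, pandas 2.3.3 and matplotlib 3.10.9 read and plotted the data. The limma steps were tried on simulated data with known changes.

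The members, the comparison families (let-7, miR-29 and miR-26) and the marker lists for hepatocytes, leukocytes, endothelium, erythroid cells, striated muscle and epithelium were chosen with earlier results of these data known. By rule the text names every member and the 3 tested miRNAs outside the family with the highest r to the mean of the 5p arms. Single members of the comparison families and of the hepatocyte list, miR-125a, miR-193a, miR-139, miR-1897, miR-126, miR-17, miR-21a and miR-22 were named after their values were seen.

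The alternatives were other scalings (75th percentile of detected or of all probes, quantile normalization, total gene signal), normexp background correction, other filters, a pairwise z-test, other limits, a block for the mouse number or for the slide, arrays of 1 slide, and each mouse left out in turn. Those chosen after seeing the data were leaving out CR mice 2 and 3, or 2, 3 and 4, the total gene signal without scaling, and 1 slide for the arm differences. Groups follow the sample labels, which give CR as 40% restriction. The RefSeq tables are of GRCm38.p6 and the array annotation of mm9, so the tables were used for names, sequences and neighbors.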

Additional observations from a re-analysis of the deposited data

Results flagged for a closer look

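In CR mouse 2 the z-score of mmu-miR-30c-2-3p was -0.137, while those of the other CR mice lay between -0.198 and -0.187. The gap to the nearest mouse was a larger share of the group's range than Dixon's 95% limit allows. Of 27 groups examined in this way, 1 stood apart, and chance alone does so for about 1 in 20 groups. The total gene signal of that arm in CR mouse 2 was 12.1, and no more than 40% of its spots were well above background on any array. The cause was not tested.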

How the results depend on the processing

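Over all alternatives and comparisons, 569 Z ratios of members kept their direction and their side of the limits, 84 kept their direction and lost a call, 1 gained one and 52 changed sign, 6 of which also lost a call. The 569 include those of members that were never called. For the 8 called Z ratios, the call was kept in 146 of 236 alternatives and lost in 90. In CR against SD, the call was kept in only 5 of 29 alternatives for miR-30a-5p and 12 of 29 for miR-30c-5p. The values below are Z ratios unless an arm difference is named, and counts are of all miRNAs, members or hairpins that met the limits. For every change given here the cause was not tested.

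When detected probes set the 75th percentile, 0 miRNAs were called in Met against SD, 56 (23 lower) in CR against SD and 67 (27 lower) in CR against Met, with 1 member in each CR comparison. Against SD, miR-30a-3p turned to 0.745, miR-30a-5p to 0.104 and miR-30e-3p to 0.269, and against Met miR-30a-3p turned to 0.468 and miR-30d-5p to 0.946. When all probes set it, the counts were 0, 51 (25 lower) and 58 (30 lower), again with 1 member in each CR comparison. Against SD, miR-30a-3p turned to 0.493 and miR-30e-3p to 0.0338, and against Met miR-30a-3p turned to 0.222 and miR-30d-5p to 0.706.

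Quantile normalization gave 0 miRNAs in Met against SD, where miR-30c-2-3p turned to -0.0115. It gave 2 members in CR against SD, miR-30e-5p lower and miR-30d-5p higher, the latter at 1.66. It gave 2 in CR against Met, both lower. Without being called, miR-30a-3p turned to 0.120 against SD and miR-30d-5p to 1.12 against Met. All miRNAs called then numbered 39 (19 lower) and 47 (26 lower), beside 31 (26 lower) and 37 (29 lower) with z-scores. With normexp correction miR-30c-2-3p turned to -0.0676 in Met against SD.

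Total gene signal scaled to its 75th percentile gave 0 miRNAs in Met against SD, where miR-30a-3p turned to -0.0140, miR-30a-5p to -0.182, miR-30b-5p to -0.0678, miR-30c-5p to -0.0663 and miR-30e-3p to -0.232. In CR against SD it gave 20 miRNAs (15 lower) and 0 members, with miR-30a-3p at 0.246. In CR against Met it gave 16 miRNAs and 0 members, and miR-30a-3p turned to 0.262, miR-30a-5p to 0.0515, miR-30c-2-3p to -0.0765 and miR-30d-5p to 0.448. Without any scaling, chosen after seeing the data, 0 miRNAs were called in Met against SD, 0 members in CR against SD, where miR-30d-5p turned to -0.0668, and 1 member in CR against Met, where miR-30c-2-3p turned to -0.594. The calls without scaling were 31 (29 lower) and 35 (33 lower).

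With no filter 1 miRNA was called in Met against SD, 27 (23 lower) with 2 members in CR against SD and 34 (28 lower) with 3 members in CR against Met. The pairwise z-test gave 13 miRNAs (4 lower) in Met against SD, where both limma calls were lower, and 27 (22 lower) with 2 members in CR against SD. An adjusted p limit of 0.05 without a Z ratio limit gave 1 miRNA in Met against SD, 55 with 1 member in CR against SD and 61 with 3 members in CR against Met.

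With the slide as a block, 0 miRNAs were called in Met against SD, where miR-30b-5p turned to -0.0543, and 17 (13 lower) with 1 member in CR against SD, where miR-30d-5p turned to -0.480. The hairpins with a changed arm difference were 0 in Met against SD, 0 in CR against SD and 1 in CR against Met. On the arrays of 1 slide, 0 miRNAs were called in Met against SD, with miR-30b-5p at -0.0543, and 12 with 0 members in CR against Met. There 0 hairpins changed in Met against SD and 0 in CR against Met, a fit chosen after seeing the data. For CR against SD, 1 slide could give no value. In the other 2 comparisons the differences of the members equaled those with the slide as a block, and only the estimate of variance was another.

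For the arm differences, the wider filter gave 0 hairpins in Met against SD, 6 in CR against SD (4 lower, miR-30a not among them) and 1 in CR against Met among 17. Z-scores of the arms gave 0 in Met against SD, where the arm difference of miR-30a turned to 0.0121.

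Leaving out CR mice was chosen after seeing the data. Without CR mice 2 and 3, 5 miRNAs were called in Met against SD, 22 with 1 member in CR against SD, and 18 miRNAs with 1 member and 1 hairpin in CR against Met. Against SD miR-30a-3p turned to 0.202 and miR-30e-3p to 0.0617, and against Met miR-30a-3p turned to 0.0630, miR-30d-5p to 0.108 and miR-30e-3p to 0.00963. Without CR mice 2, 3 and 4, 7 miRNAs were called in Met against SD, 15 (6 lower) with 0 members in CR against SD, and 3 with 0 members and 0 hairpins in CR against Met. Against SD miR-30a-3p turned to 0.509, miR-30a-5p to 0.362, miR-30b-5p to 0.0675, miR-30c-5p to 0.454 and miR-30e-3p to 0.250. Against Met miR-30a-3p turned to 0.453, miR-30a-5p to 0.144, miR-30d-5p to 0.478 and miR-30e-3p to 0.246.

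When each mouse was left out in turn, Met against SD gave 1 to 12 miRNAs and 0 to 2 hairpins, with Z ratios of -0.00479 to 0.915 for miR-30a-5p, -0.105 to 0.162 for miR-30c-2-3p and -0.0114 to 0.216 for miR-30e-3p. The sign changed without SD mouse 1 for miR-30a-5p, without Met mouse 3 for miR-30e-3p, and without SD mouse 1, 2 or 4 or Met mouse 1, 3 or 5 for miR-30c-2-3p. The count of 12 miRNAs and that of 2 hairpins came without SD mouse 5. The counts of 1 miRNA came without SD mouse 2, 3 or 4 or Met mouse 2, 4 or 5, and those of 0 hairpins without SD mouse 3 or Met mouse 2, 4 or 5. CR against SD gave 26 to 36 miRNAs and 1 to 4 members, with 1 member without CR mouse 2 or 3 and 2 members without SD mouse 2, 3 or 5 or CR mouse 4. There miR-30a-3p ranged from -0.255 to 0.0307, above 0 without CR mouse 3. CR against Met gave 29 to 42 miRNAs and 2 to 4 members, with 2 without CR mouse 2, and 1 to 3 hairpins. The Z ratio of miR-30d-5p ranged from -0.243 to 0.106, above 0 without CR mouse 3.

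With the replicate block, in which equal mouse numbers were treated as pairs, 2 miRNAs with 0 members were called in Met against SD, 32 (27 lower) with 4 members in CR against SD and 37 with 4 members in CR against Met. The Z ratios of mmu-miR-30e-5p were -2.68 (limma adjusted p = 0.0232) and -2.69 (adjusted p = 0.0338). The hairpins numbered 1, 3 and 2. Deviations of equally numbered mice from their group means correlated with r from -0.562 to 0.714, and nothing in the labels makes the numbers pairs.

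The limits are those of the design. CR and SD shared no slide, so slide and diet cannot be told apart without the Met arrays. CR mice 2, 3 and 4 had the lowest summed signals, and dim arms are closest to background there. In CR mouse 3, 50% of the spots for miR-30e-5p were well above background. The probes for near-identical arms were not tested for binding each other's target.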
